A study of Rattus norvegicus with 24 samples.

Results

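The cluster of miR-532, miR-188, miR-362, miR-501 and miR-500 is a group of X-linked miRNA hairpins, and it was followed here together with rno-miR-652, a separate X-linked miRNA, in rat peripheral blood mononuclear cells (PBMC). The 7 members are rno-miR-500, rno-miR-501, rno-miR-532-5p, rno-miR-532-3p, rno-miR-362, rno-miR-188 and rno-miR-652, out of 677 miRNAs on the array, and each was taken by its exact name. The list was chosen by measured values: rno-miR-500 stood out for its lower level in stimulated animals at 34 days than in arthritic animals before therapy. That comparison is therefore described without a test, and the question asked is whether the other members followed rno-miR-500.

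All samples came from female Wistar rats, with 2 arrays in each of 12 groups. Collagen-induced arthritis (CIA), a model of rheumatoid arthritis, was raised with bovine type II collagen in adjuvant. Healthy rats (NOCIA, NORA in the labels) and arthritic rats (CIA, RA in the labels) were sampled before therapy (NOCIA_B and CIA_B). Healthy rats were sampled again at 1 hour and 34 days, as were 4 arthritic arms. These received needle mechanical stimulation under the skin (MS, AP in the labels), methotrexate (MTX), saline placebo (PLA), or no therapy but isoflurane in place of ether at blood sampling (ANE). Animals were killed at sampling, so the times are different animals, and ages are not given in the sources used here.

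MicroRNAs of 1 cluster can be cut from a shared primary transcript, so their mature products may rise and fall together, although each hairpin is processed and each arm is retained or degraded separately. Bases 2 to 8 of a mature miRNA, the seed, pair with target mRNAs, and miRNAs with the same seed can share targets. In the RefSeq table for GRCr8 the cluster hairpins lie on the plus strand of chromosome X within 11542 bases, inside the bounds of Clcn5, a chloride and proton exchanger gene (chrX:17857260-18011844). In order they are Mir532 (chrX:17919185-17919263), Mir188 (chrX:17919585-17919664), Mir362 (chrX:17926485-17926549), Mir501 (chrX:17927189-17927272) and Mir500 (chrX:17930647-17930726). Mir652 lies 93209352 bases further along (chrX:111140079-111140159), inside the bounds of Tmem164, which encodes a membrane protein. Whether these hairpins are intronic was not settled by the table, which gives only gene bounds.

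Of the 7 array names, 2 equal a RefSeq mature name (rno-miR-532-5p and rno-miR-532-3p). The other 5 carry no arm, and which arm their probes read is not given in the sources used here, so each arm listed in RefSeq is shown. For Mir362 only the 3p arm is listed, and the rno-miR-362 probes need not read it. The mature sequences follow because they show which members could be confused on an array or share a seed. Capitals mark the seed.
rno-miR-500-5p: aAUCCUUGcuaucugggugcuuag
rno-miR-501-5p: aAUCCUUUgucccuggguga
rno-miR-500-3p: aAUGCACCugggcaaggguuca
rno-miR-501-3p: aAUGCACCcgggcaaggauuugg
rno-miR-362-3p: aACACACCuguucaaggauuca
rno-miR-532-5p: cAUGCCUUgaguguaggacugu
rno-miR-188-5p: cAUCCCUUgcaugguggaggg
rno-miR-532-3p: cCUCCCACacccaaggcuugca
rno-miR-188-3p: cUCCCACAugcaggguuugc
rno-miR-652-5p: aCAACCCUaggagggggugccau
rno-miR-652-3p: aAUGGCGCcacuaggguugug
The 3p arms of miR-500 and miR-501 have the same seed, AUGCACC, and match at 18 of their first 22 bases. No other pair of these 11 arms shares a seed. The 3p arms of miR-362 and miR-500 match at 17 of 22 bases, and the 5p arms of miR-532 and miR-188 at 14 of 21.

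Levels are log2 total intensities after each array was scaled to the same 75th percentile of the 132 miRNAs detected on all 24 arrays, with a floor at 2.53. Summed intensity per array ran from 137544 to 519917. The 2 brightest arrays, MS at 34 days replicate 1 (519917) and MS at 1 hour replicate 1 (371061), also had the lowest and second lowest rno-miR-500. The same arrays had the lowest summed intensity of the 4 lymphocyte markers (miR-150, miR-342-3p, miR-146a and miR-181a), 2200 and 2250 against 4973 to 15689 on the other arrays. That sum weighs the brightest marker most. The level of miR-150 reached 13.47 (log2), against 11.21 for miR-342-3p, 10.33 for miR-181a and 9.69 for miR-146a. All 4 markers were detected on all 24 arrays, and the myeloid marker miR-223 was too. Of the platelet and endothelial pair, miR-126* was detected on 2 arrays, and their sum ran from 49.2 to 205, highest on MS replicate 1 at 34 days (205) and at 1 hour (179). The miR-223 intensity ran from 4918 to 13020. The erythroid sum, from miR-451 and miR-144, ran from 2363 to 37545. The part of brightness or cell makeup in the values below was not tested, and in PBMC fewer cells of a type and less RNA per cell cannot be told apart. Nothing in the sources used here says more of the replicates than their numbers, so the p-values measure the spread between these samples.

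Of the members, 5 were detected on all 24 arrays, rno-miR-362 on 22 and rno-miR-501 on 0. The rno-miR-362 signal was missing on both NOCIA_B arrays. Since rno-miR-501 was not well above background anywhere, it has no level here. The remaining products of the same hairpins split likewise: rno-miR-362* and rno-miR-652* were detected on 24 arrays, rno-miR-188* on 1, and rno-miR-500* and rno-miR-501* on 0. The star names are the array's own and mark the other product of a hairpin.

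Among the detected members, rno-miR-500 and rno-miR-188 varied most. Over the 24 arrays the level of rno-miR-500 ran from 7.09 through a median of 8.77 to 9.55, and that of rno-miR-188 from 3.44 through 5.54 to 6.36. The 2 products of Mir532 moved less, from 4.57 to 5.71 (median 5.20) for rno-miR-532-3p and from 5.61 to 6.76 (median 6.43) for rno-miR-532-5p. The level of rno-miR-652 stayed between 9.44 and 10.63 (median 9.97). The range of rno-miR-500 was 2.46 (log2), against a median range of 1.33 over the 132 miRNAs, and 21 of them had a wider range. Its lowest and highest arrays, MS at 34 days replicate 1 and CIA_B replicate 2, belong to the groups that chose it. Nothing is therefore read from that range. The within-group SD of rno-miR-500, pooled over 12 groups, was 0.55, against 0.22 for rno-miR-652 and a median of 0.28 over the 132. The SD of rno-miR-188 was larger still, 0.82. The plot of levels by array shows both low on replicate 1 of either MS group.

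**Figure D1:**
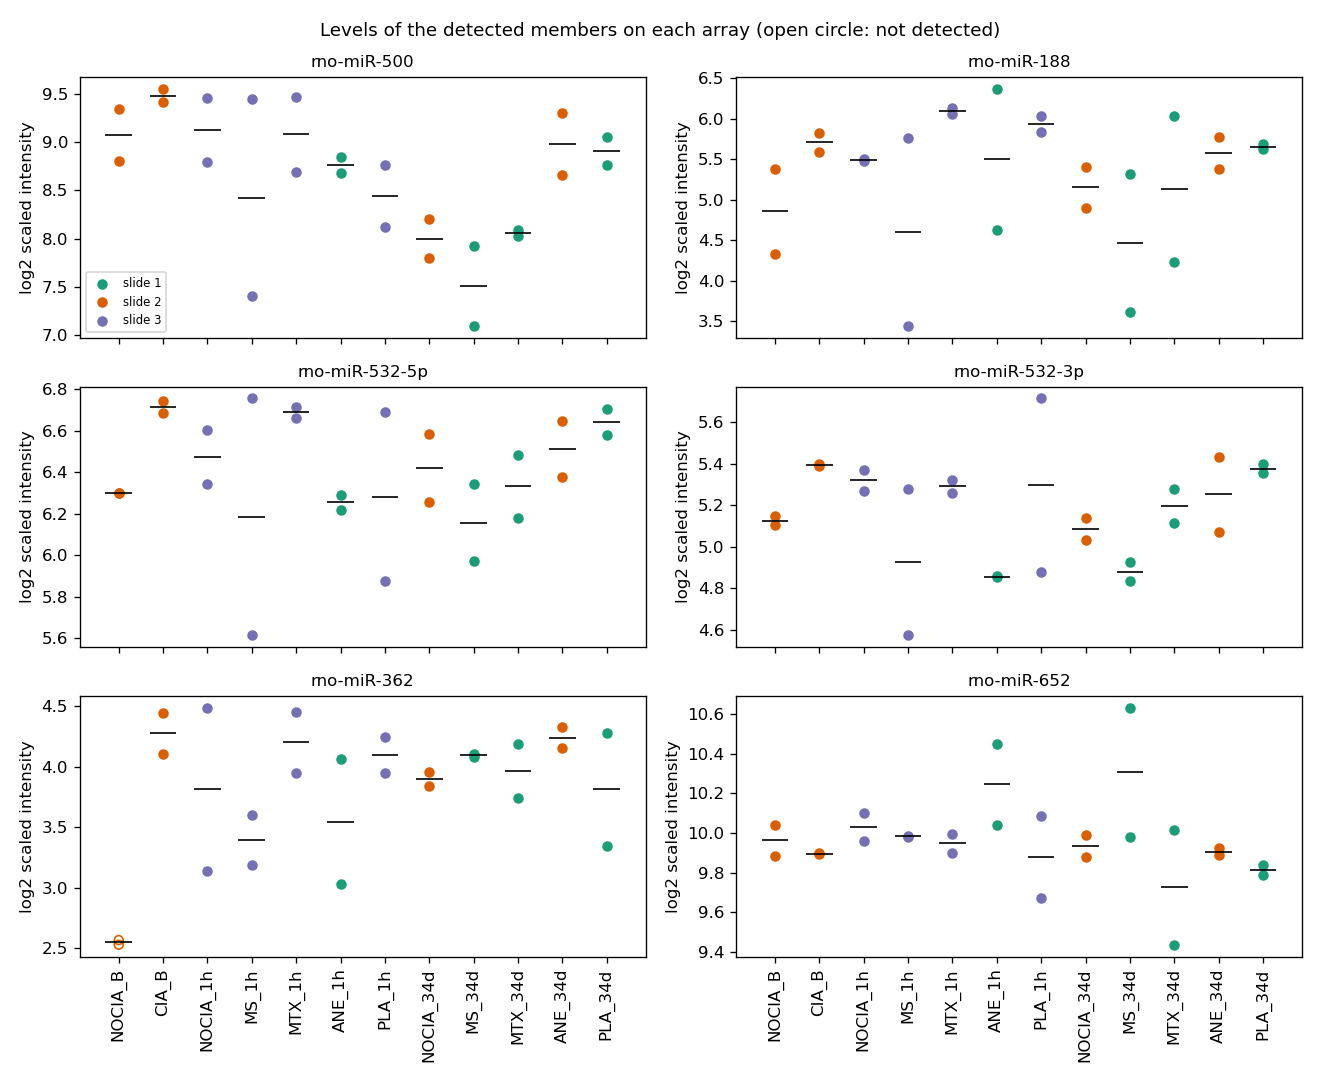
Log2 scaled intensity (vertical axes) of the 6 detected members in the 12 groups (horizontal axis), with 1 point per array, coloured by slide, and a line at each group mean. Both rno-miR-500 and rno-miR-188 were low on replicate 1 of MS at 1 hour and at 34 days, while rno-miR-652 was highest on the latter, and open circles mark the NOCIA_B arrays on which rno-miR-362 was not detected.

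By group mean, rno-miR-500 was highest in CIA_B, with array values of 9.42 and 9.55, and lowest in MS at 34 days, with 7.09 and 7.92. It was 9.46 and 8.79 in NOCIA at 1 hour, 8.69 and 9.47 in MTX at 1 hour, and 9.35 and 8.80 in NOCIA_B. The values were 8.66 and 9.30 in ANE at 34 days and 8.77 and 9.05 in PLA at 34 days. All these groups but MS at 34 days kept both arrays at 8.66 or above. Below them came ANE at 1 hour (8.68 and 8.85), PLA at 1 hour (8.77 and 8.12) and MS at 1 hour (7.40 and 9.45). MTX at 34 days (8.03 and 8.09) and NOCIA at 34 days (8.20 and 7.80) lay just above MS at 34 days. In this order of means each group overlapped its next neighbour, so no step between neighbours exceeded their spread. The MS group at 1 hour spanned most of the range on its own (SD 1.45, n = 2).

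The contrast that chose rno-miR-500 is described first. The level in MS at 34 days was 1.98 (log2) below that in CIA_B, 3.94-fold lower, and the 2 groups did not overlap, as was so for 68.6% of the 210 tested miRNAs. With no scaling between arrays the rno-miR-500 difference was -0.78, and the median over all 210 moved from 0.16 to 1.32. Among the other detected members, rno-miR-188 was 1.24 lower, rno-miR-532-5p 0.56 lower, rno-miR-532-3p 0.51 lower and rno-miR-362 0.18 lower, while rno-miR-652 was 0.41 higher. With no scaling rno-miR-188 differed by -0.047, and the signs of rno-miR-532-5p (0.64), rno-miR-532-3p (0.68) and rno-miR-362 (1.01) turned. In this comparison 40 of 210 tested miRNAs, 19.0%, had an adjusted p under 0.05 by limma. The median difference was -0.53 over the 6 members. Relative to rno-miR-500 on the same array, 164 of 209 miRNAs, 78.5%, passed. These arrays chose the member, and nothing is read from either share for the members.

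No member was called in any of the 16 other comparisons, which gave 96 member differences. The lowest adjusted p was 0.0572, and 8 of the 96 had an unadjusted p under 0.05. Over all 210 miRNAs the calls made up 2.38% in NOCIA at 1 hour against NOCIA_B, 1.43% in MTX at 1 hour against CIA_B and 0.476% in ANE at 1 hour against CIA_B. They made up 0.952% in CIA_B against NOCIA_B, PLA at 1 hour against CIA_B, NOCIA at 34 days against NOCIA_B and MS against PLA at 1 hour. In the remaining 9 comparisons they made up 0.0%, although by limma 4 to 84 of the 210 had an unadjusted p under 0.05 there. An absence of member calls is therefore near the background. All comparisons with CIA_B share its 2 arrays, and those of MS at 34 days with PLA and with MTX share the MS arrays. Both sets of arrays chose rno-miR-500, so its differences from either group are not independent of that choice. The 8 differences are given next by member.

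In rno-miR-500, the level in MS at 34 days was 1.40 lower (log2, SE 0.53) than in PLA at 34 days, 2.64-fold, with a 95% interval from -2.53 to -0.27. The limma adjusted p was 0.0744, and 40.0% of all 210 miRNAs had an unadjusted p under 0.05 in that comparison. Both MS arrays lay below both PLA arrays, all on 1 slide, and 71.0% of the 210 miRNAs did not overlap between these groups. The summed lymphocyte markers were 2200 and 7804 on the MS arrays and 13602 and 13027 on the PLA arrays, and their part in the difference was not tested. Without MS replicate 1 the difference was -0.99, and without replicate 2 it was -1.82. With no scaling between arrays it was -0.36, and the median over all 210 moved from 0.21 to 1.13.

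Against CIA_B, the level of rno-miR-500 in MTX at 34 days was 1.43 lower (SE 0.53), 2.69-fold, with an interval from -2.56 to -0.30. The limma adjusted p was 0.658, and 7.14% of the 210 miRNAs had an unadjusted p under 0.05. The groups did not overlap, as was so for 32.9% of the 210, and they lay on different slides, so slide and treatment cannot be told apart. With no scaling the difference was -0.84. The summed lymphocyte markers were 7757 and 11699 on the MTX arrays and 14441 and 15689 on the CIA_B arrays, with no overlap, and their part was not tested. In healthy animals at 34 days rno-miR-500 was 1.08 lower than in NOCIA_B (interval -2.21 to 0.056, limma adjusted p = 0.751), on the same slide, and 0.49 lower with no scaling. The levels in ANE and PLA at 34 days differed from CIA_B by -0.50 (interval -1.64 to 0.63) and -0.57 (-1.71 to 0.56). Between MS and MTX at 34 days the difference was -0.55 (interval -1.68 to 0.58, limma adjusted p = 0.545). Before therapy the level was 0.41 higher in CIA_B than in NOCIA_B (interval -0.72 to 1.54).

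At 1 hour rno-miR-500 gave no call either. In MS the level was 1.06 below CIA_B (interval -2.19 to 0.072, limma adjusted p = 0.386) and 0.014 below PLA (interval -1.15 to 1.12). Leaving out MS replicate 2, so that the brighter array of the group stood alone, made the first difference -2.09. The differences of rno-miR-532-5p and rno-miR-532-3p from CIA_B then became -1.10 and -0.82. A lone array has no spread of its own, so only the sizes are given. Calls over all miRNAs rose in that fit as well.

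The array reads rno-miR-500 with 2 probes of 10 spots each. Between MS at 34 days and CIA_B probe 1 differed by -2.21 and probe 2 by -1.82 (log2), and between MTX at 34 days and CIA_B by -1.54 and -1.35. Between MS and PLA at 34 days the differences were -1.60 and -1.27. Both probes were lower in each of these comparisons, probe 1 by more.

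The cluster partner rno-miR-188 was lowest on the same 2 arrays as rno-miR-500, MS replicate 1 at either time. Other arrays did not match: NOCIA_B replicate 2 was 4.33 in rno-miR-188 and 8.80 in rno-miR-500, and MTX at 34 days replicate 2 was 6.04 and 8.09. Its levels were 3.61 and 5.32 in MS at 34 days, 5.69 and 5.62 in PLA at 34 days, 4.23 and 6.04 in MTX at 34 days, and 5.83 and 5.59 in CIA_B. In MS at 1 hour they were 3.44 and 5.76, against 5.84 and 6.03 in PLA. Both MS arrays lay below both PLA arrays at each time. Of the 210 miRNAs, 71.0% did not overlap between these groups at 34 days and 24.3% at 1 hour. The MS minus PLA difference was -1.19 at 34 days (interval -2.85 to 0.48, limma adjusted p = 0.244) and -1.33 at 1 hour (interval -2.997 to 0.33, limma adjusted p = 0.691). Without MS replicate 1 the difference at 34 days was -0.33, and with no scaling it was -0.15.

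The Mir532 products had smaller differences, of the same sign only where arrays were scaled. In MS at 34 days rno-miR-532-5p was 5.97 and 6.34 and rno-miR-532-3p 4.92 and 4.83, against 6.70 and 6.58, and 5.40 and 5.35, in PLA. The MS minus PLA differences were -0.48 (interval -1.16 to 0.19, limma adjusted p = 0.243) for the 5p arm and -0.50 (interval -1.02 to 0.024, limma adjusted p = 0.130) for the 3p arm. Neither arm overlapped between the groups, as was so for 71.0% of the 210 miRNAs. With no scaling both turned positive, 0.56 for the 5p arm and 0.55 for the 3p arm, and on the authors' log2 values they were -0.53 and -0.024. In ANE at 1 hour rno-miR-532-3p was 4.86 and 4.85, below CIA_B at 5.40 and 5.39. That difference of -0.54 (SE 0.24, interval -1.06 to -0.018) had a limma adjusted p of 0.263, where 18.1% of all miRNAs had an unadjusted p under 0.05. It was made across slides, and 55.2% of the 210 did not overlap between these groups. The difference was -0.069 with no scaling and -0.24 on the authors' log2 values. The summed lymphocyte markers were 6586 and 7292 on the ANE arrays against 14441 and 15689 on the CIA_B arrays, and the miR-223 intensity 10149 and 13020 against 4918 and 6222. Their part in the difference was not tested.

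For rno-miR-362 the contrast was with healthy animals before therapy. It was detected on both CIA_B arrays (4.44 and 4.11), but on neither NOCIA_B array, where the file's total is its listed error, so the fitted differences from NOCIA_B depend on the floor and give neither a fold nor a bound. The fitted difference of CIA_B from NOCIA_B was 1.73 (limma adjusted p = 0.0572). In that comparison 7.62% of the 210 miRNAs had an unadjusted p under 0.05. Against the same NOCIA_B arrays it was 1.26 for NOCIA at 1 hour (limma adjusted p = 0.222) and 1.35 for NOCIA at 34 days (limma adjusted p = 0.335). The shares of all miRNAs with an unadjusted p under 0.05 were 9.05% and 6.67%. The NOCIA_B arrays were the 2 dimmest of the 24, with 148 and 145 miRNAs detected, and the part of that in these differences was not tested. With normexp background correction the CIA_B difference was 0.075, and on the authors' log2 values 0.11. Of the 4 rno-miR-362 probes, 2 gave a signal above 0 on only 1 and 11 arrays, and the level rests on the other 2. These 2 gave smaller differences, 0.78 and 0.59 (log2) between CIA_B and NOCIA_B, 0.47 and 0.46 at 1 hour, and 0.51 and 0.15 at 34 days. Between MS and PLA at 34 days, where it was detected on all 4 arrays, rno-miR-362 differed by 0.28 (interval -0.62 to 1.19, limma adjusted p = 0.650).

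Outside the cluster, rno-miR-652 had a difference above 0 between MS and PLA at 34 days, as did rno-miR-362 within it. In MTX at 34 days against CIA_B all 6 detected members were lower (median -0.35), rno-miR-652 by 0.17, whereas with no scaling only rno-miR-500 was. Of all 210 miRNAs, 92 were lower in that comparison. All 6 members were also lower in PLA at 34 days against CIA_B, and 5 of the 6 in ANE, against 93 and 86 of the 210. These comparisons share the CIA_B arrays, which chose rno-miR-500. The levels of rno-miR-652 were 10.63 and 9.98 in MS at 34 days, 9.79 and 9.84 in PLA, 10.01 and 9.44 in MTX, and 9.90 and 9.90 in CIA_B. MS exceeded PLA by 0.49 (log2, SE 0.22, interval 0.011 to 0.98, limma adjusted p = 0.120). MS exceeded MTX by 0.58 (interval 0.098 to 1.06, limma adjusted p = 0.259), where 17.6% of the 210 miRNAs had an unadjusted p under 0.05. MS and MTX overlapped, and replicate 1 of MS was the highest of the 24 arrays. The summed platelet and endothelial markers were 205 and 109 on the MS arrays against 93.0 and 49.2 on the PLA arrays, and the miR-223 intensity 12161 and 8678 against 7140 and 8403. Their part was not tested. Without MS replicate 1, MS exceeded PLA by 0.17 and MTX by 0.25, and without MS replicate 2 it exceeded PLA by 0.82. Each of these fits leaves a lone MS array, so only the sizes are given. With no scaling between the arrays, all kept, MS exceeded PLA by 1.54 (limma adjusted p = 0.0199). The median over all 210 was then 1.13, and calls over all miRNAs and comparisons rose from 17 to 136. Nothing is read from that value for rno-miR-652.

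The 2 probes of rno-miR-652 gave different sizes. Between MS and PLA at 34 days probe 1 differed by 0.031 and probe 2 by 0.63, and between MS at 34 days and CIA_B by -0.13 and 0.58. On MS replicates 1 and 2 probe 2 was 10.32 and 9.65, above PLA at 9.33 and 9.38. Probe 1 was 8.26 and 7.68, on either side of PLA at 7.91 and 7.96.

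**Figure D2:**
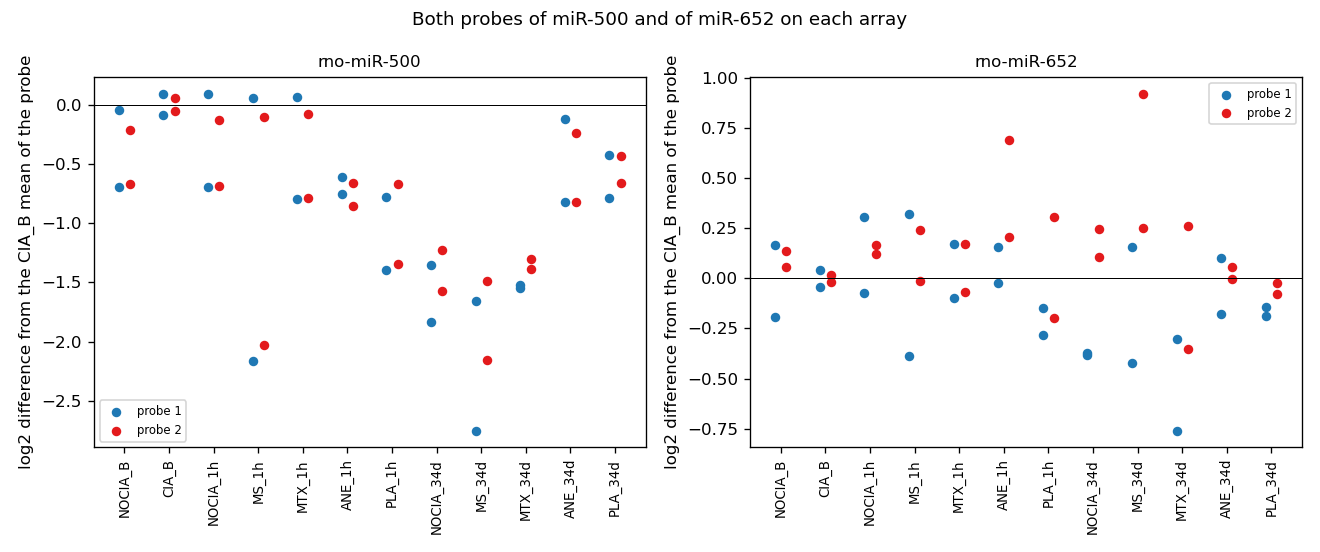
Log2 scaled signal of each probe minus that probe's mean in CIA_B (vertical axes) on each array of the 12 groups (horizontal axis), for the 2 probes of rno-miR-500 (left) and of rno-miR-652 (right). Both rno-miR-500 probes were low in MS at 34 days, while of the rno-miR-652 probes probe 2 was above its CIA_B mean on both MS arrays and probe 1 above on replicate 1 and below on replicate 2.

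The star product of the same hairpin, rno-miR-652*, was lower in MS. Its level was 4.72 and 5.49 in MS at 34 days, 6.68 and 6.24 in PLA, 5.47 and 6.70 in MTX, and 7.24 and 6.22 in CIA_B. MS was 1.35 below PLA (SE 0.45, interval -2.32 to -0.39), 2.56-fold, with a limma adjusted p of 0.0622. Both MS arrays lay below both PLA arrays, and 71.0% of the 210 miRNAs did not overlap between these groups. Without MS replicate 1 the difference was -0.97. With no scaling it was -0.31. The second product of Mir362, rno-miR-362*, was 4.98 and 5.34 in MS at 34 days against 6.04 and 5.86 in PLA, a difference of -0.79 (interval -1.58 to 0.013, limma adjusted p = 0.122), which turned to 0.26 with no scaling.

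**Figure D3:**
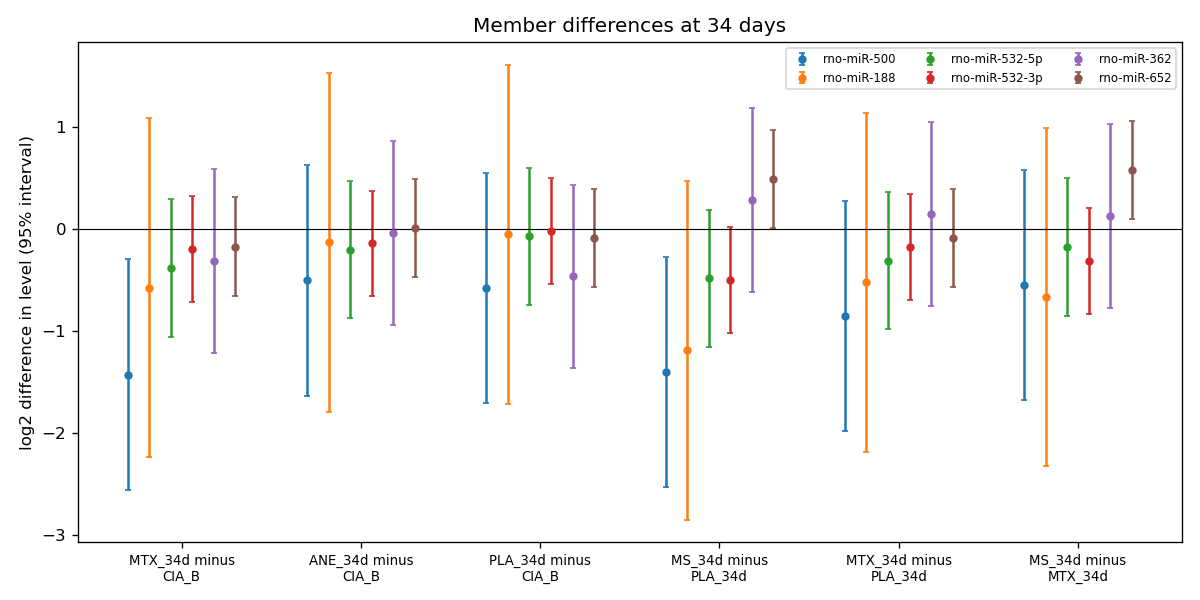
Log2 difference in level (points) with its 95% interval from the limma fit (bars) for the 6 detected members in 6 comparisons at 34 days (horizontal axis, first group minus second). Only rno-miR-500 in MTX minus CIA_B and in MS minus PLA, and rno-miR-652 in MS minus PLA and in MS minus MTX, had unadjusted intervals clear of 0, and none was called after adjustment.

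Each miRNA was also set against rno-miR-500 on the same array, where scaling cancels. The low rno-miR-500 of the MS arrays, which chose the list, enters every such difference between MS and PLA at 34 days, so these are given as a description. Relative to rno-miR-500, rno-miR-652 was 1.90 higher in MS (SE 0.65) and rno-miR-362 1.69 higher (SE 0.72). These 2 of 5 members had an adjusted p under 0.05, against 131 of 209 miRNAs, 62.7%, and nothing is read from that count. The others differed by 0.92 (rno-miR-532-5p, interval -0.066 to 1.90), 0.91 (rno-miR-532-3p, interval -0.19 to 2.01) and 0.21 (rno-miR-188, interval -1.13 to 1.56). Without MS replicate 1 the rno-miR-652 difference was 1.15, and no member had an adjusted p under 0.05.

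Relative to rno-miR-500, no member was called between CIA_B and MTX, ANE or PLA at 34 days, and 0.0% of the 209 miRNAs were in each. By limma 135 of the 209 had an unadjusted p under 0.05 in the MTX comparison, 8 in that of ANE and 3 in that of PLA. In the MTX comparison rno-miR-532-3p stood higher relative to rno-miR-500 by 1.23 (interval 0.13 to 2.33) and rno-miR-532-5p by 1.05 (interval 0.063 to 2.03), both with a limma adjusted p of 0.0736. The CIA_B arrays also chose rno-miR-500, so nothing is read from these. The levels of these arms themselves were 0.20 and 0.38 below CIA_B, and 0.40 and 0.21 above it with no scaling.

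Across the 20 arrays other than MS at 34 days and CIA_B, the level of rno-miR-532-5p followed that of rno-miR-500 with Pearson's r of 0.69 (permutation p = 0.00079, adjusted p = 0.00395 over 5 members, 100000 permutations, two-sided) and Spearman's rho of 0.61 (permutation p = 0.00503, adjusted p = 0.0251). For rno-miR-532-3p r was 0.54 (permutation p = 0.0141, adjusted p = 0.0353) and rho 0.48 (permutation p = 0.0338, adjusted p = 0.0845). For rno-miR-188 r was 0.48 (permutation p = 0.0314, adjusted p = 0.0523) and rho 0.26 (permutation p = 0.263, adjusted p = 0.438). Both Mir532 arms thus passed on r, and the 5p arm alone on both measures. These p-values took no account of group or slide. They treat the 20 arrays as independent, which arrays of 1 group or 1 slide need not be. Of the other miRNAs detected on all arrays, 7.69% had an r at or above that of rno-miR-532-5p and 19.2% that of rno-miR-532-3p. Their lower quartile of r was -0.57, so values as far from 0 as that of rno-miR-532-3p were common, and nothing is read from its pass. The remaining members did not pass. For rno-miR-362 r was -0.17 (permutation p = 0.462, adjusted p = 0.578) and rho -0.048 (permutation p = 0.840, adjusted p = 0.840). For rno-miR-652 r was 0.11 (permutation p = 0.658, adjusted p = 0.658) and rho 0.062 (permutation p = 0.798, adjusted p = 0.840).

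These relations rested in part on MS at 1 hour replicate 1, the lowest rno-miR-500 among the 20. Without it and NOCIA at 34 days replicate 2, the arrays farthest from the median, r was 0.52 for rno-miR-532-5p, 0.30 for rno-miR-532-3p, 0.15 for rno-miR-188, -0.23 for rno-miR-362 and 0.20 for rno-miR-652. Without MS at 1 hour replicate 1 alone, no member passed, and the adjusted permutation p of rno-miR-532-5p was 0.0726. Within slides r for rno-miR-532-5p was 0.40 and 0.23 on the 6 arrays each of slides 1 and 2 and 0.90 on the 8 of slide 3, which holds that array. The matching values were -0.036, 0.58 and 0.72 for rno-miR-532-3p, and 0.39, 0.18 and 0.66 for rno-miR-188. They were -0.048, -0.38 and -0.087 for rno-miR-362, and 0.29, 0.19 and -0.051 for rno-miR-652. With no scaling between arrays, the relation to rno-miR-500 was lost (r = 0.12 for rno-miR-532-5p and -0.050 for rno-miR-532-3p).

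**Figure D4:**
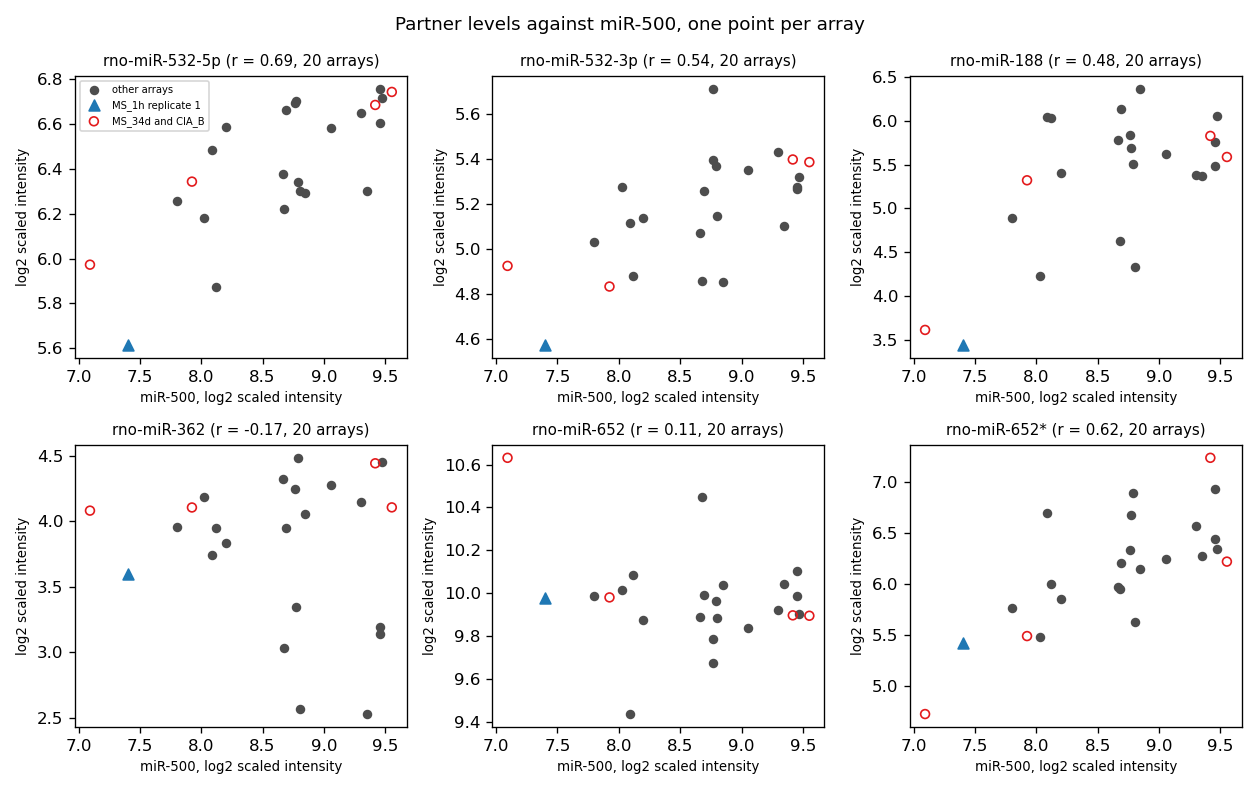
Log2 scaled intensity of 6 miRNAs (vertical axes) against that of rno-miR-500 (horizontal axes), with 1 point per array, red rings for MS at 34 days and CIA_B, and a blue triangle for MS at 1 hour replicate 1. The points of rno-miR-532-5p rise with rno-miR-500 (r = 0.69 over 20 arrays), and the triangle lies at the low end of the cluster partners rno-miR-532-5p, rno-miR-532-3p and rno-miR-188.

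Over the 131 other miRNAs detected on all arrays r with rno-miR-500 had a median of -0.096 and quartiles of -0.57 and 0.42. Of these, 7.69% had an r at or above that of rno-miR-532-5p, 19.2% of rno-miR-532-3p and 23.1% of rno-miR-188, each left out of its own share. By rank of r, rno-miR-532-5p was 11th, rno-miR-532-3p 26th, rno-miR-188 31st and rno-miR-652 57th of the 131. The star products rno-miR-652* (r = 0.62) and rno-miR-362* (r = 0.59) ranked 16th and 22nd. Over all 24 arrays, as a description, r was 0.74 for rno-miR-532-5p, 0.62 for rno-miR-532-3p, 0.60 for rno-miR-188, 0.74 for rno-miR-652*, 0.71 for rno-miR-362*, -0.12 for rno-miR-362 and -0.26 for rno-miR-652.

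The miRNAs most like rno-miR-500 over the 20 arrays included no cluster partner. They were rno-miR-3588 (r = 0.97), rno-miR-3558-3p (r = 0.83), rno-miR-363 (r = 0.83), rno-miR-1949 (r = 0.78) and rno-miR-181b (r = 0.78), each detected on all 24 arrays. They are given as a description with no test. RefSeq places rno-miR-363 on chromosome X, apart from the cluster, and rno-miR-181b belongs to the family of the lymphocyte marker miR-181a.

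Other X-linked miRNAs were compared with the members in the same groups. Of 90 other array miRNAs placed only on chromosome X by RefSeq, 19 passed the detection filter. Between MS and PLA at 34 days 14 of these 19 were higher and 5 lower, with a median difference of 0.51. The median was 0.21 over all 210 miRNAs and -0.48 over the 5 detected members other than rno-miR-500. The MS arrays chose rno-miR-500, so it is left out of that median. By limma none of the 19 was called, 6 had an unadjusted p under 0.05 upward and 1 downward. Of all 210 miRNAs, 121 were higher and 80 lower. By limma none of the 210 was called, 69 had an unadjusted p under 0.05 upward and 15 downward. Among the 10 X-linked miRNAs detected on all arrays the median r with rno-miR-500 was -0.32.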

How the data were processed

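The 24 arrays were one-colour Agilent rat miRNA arrays, on 3 slides of 8 arrays, with each group on 1 slide. Per the file headers, Agilent's Feature Extraction (10.7.3.1) produced the deposited files, whose intensity values are background-corrected totals per miRNA, each with a detection mark. All 12046 undetected values equalled their listed error. The authors also deposited log2 processed values, whose normalisation is named only as RMA in the submitters' processing notes. One label line for NOCIA at 34 days names 1 hour; the title's 34 days was used.

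Intensities were scaled to the 75th percentile of 132 miRNAs (scale factors 0.452 to 1.42), floored at 5.76 and taken to log2. Detection on 3 or more arrays left 210 miRNAs, which were fitted with 12 group means in limma 3.58.1 (R 4.3.3, two-sided, 12 residual degrees of freedom). An adjusted p (Benjamini-Hochberg) under 0.05 is a call. An exact test of 2 against 2 cannot go below 0.333. On simulated data for MS against PLA at 34 days (210 miRNAs), 49.75% of changes of 1 (log2) and 81.75% of changes of 2 were called, and 3.13% of calls were false. The simulated noise was normal and independent between miRNAs. It held no shifts shared across an array, so these rates need not hold for the measured values. Correlations used scipy 1.17.1. The number of arrays limits the precision.

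The members and lists were chosen with earlier results of these data known. Named were all members, differences with an unadjusted p under 0.05, and the 5 miRNAs most correlated with miR-500. Of the array's miRNAs, 593 matched RefSeq by name. Alternatives were other scalings, values, backgrounds, floors, filters, fits and thresholds, the replicate block and leaving out arrays.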

Additional observations from a re-analysis of the deposited data

How the results depend on the processing

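The count of 0 member calls over the 16 comparisons stayed at 0 with the authors' log2 table, normexp on the spot signals, a floor 2 times higher, only miRNAs detected on all arrays and without both brightest MS arrays (chosen after seeing the data). It was 1 with no scaling (rno-miR-652, MS against PLA at 34 days) or a floor 2 times lower (rno-miR-362, CIA_B against NOCIA_B), and 2 with the 75th percentile over all miRNAs or quantile normalisation (rno-miR-362 against NOCIA_B). It was 2 with only the arrays compared (rno-miR-362) and 2 by the study's threshold (rno-miR-500 in MS against PLA and in MTX against CIA_B, both at 34 days). That threshold is a fold change over 2 with an unadjusted p under 0.05. By limma 40.0% and 7.14% of the 210 had such a p in these comparisons, before the limit on fold. Both comparisons use arrays that chose rno-miR-500, so nothing is read from these 2. With no filter on detection the count was 9, of which 5 were rno-miR-501, detected nowhere. Over all miRNAs and the 16 comparisons, the calls were 17 of 3360 tests in the main fit and 136 with no scaling. They were 15 with the lower floor, 10 with the percentile over all miRNAs and 12 with quantile normalisation. With only the arrays compared they were 26, and with no filter 1864 of 10832. Leaving out 1 array gave 0 to 4, with 0 for 17 of 24 arrays. The fits with a member call left out a NOCIA, MS or ANE array at 1 hour, or MS at 34 days replicate 2. In each of these the calls over all miRNAs were also above those of the main fit. Nothing is read from them for the members.

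The count of 2 members past the threshold relative to rno-miR-500, from which nothing is read, stayed at 2 with a floor 2 times higher. It became 1 with no scaling, the 75th percentile over all miRNAs, quantile normalisation, a floor 2 times lower or only miRNAs detected on all arrays, 3 with the authors' table, 4 with no filter or by the study's threshold, 6 with only the arrays compared and 8 with normexp. Without both brightest MS arrays there were 3, all in MTX against CIA_B at 34 days. Leaving out 1 array gave 0 to 6, with 0 without MS replicate 1 or either PLA array at 34 days and 6 without either MS array at 1 hour. With the replicate block the 0 member calls stayed 0 and the count of 2 became 1. The replicate numbers did not pair the samples: over 66 pairs of groups the deviations correlated with a median of -0.03 (-0.77 to 0.84).

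The 2 members correlated with rno-miR-500 became 0 with no scaling, quantile normalisation or the authors' table, 1 with normexp and 4 with the 75th percentile over all miRNAs. Leaving out 1 array gave 0 to 3, with 0 without MS at 1 hour replicate 1 and 1 without MTX at 1 hour replicate 2, NOCIA at 34 days replicate 2 or PLA at 34 days replicate 2. Signs turned for rno-miR-532-3p (-0.050 with no scaling, -0.021 with normexp), rno-miR-652 (-0.037 with no scaling, and -0.052 to 0.152 when leaving out 1 array, lowest without MTX at 34 days replicate 2) and rno-miR-362 (0.049 with a floor 2 times higher, r in each case). With normexp the rno-miR-362 difference of NOCIA at 1 hour from NOCIA_B turned to -0.023. The causes were not tested. Slide as a block was not run, because each group lies on 1 slide. Signal over background limits rno-miR-501, detected on 0 arrays, and rno-miR-362, on 22.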
